A study of Danio rerio with 48 samples.

Results

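The 7 genes described here carry or report the action of cortisol in larval zebrafish heads. They are the corticosteroid receptor genes nr3c1 and nr3c2, the response genes fkbp5, tsc22d3 and klf9, and the cortisol-converting enzyme genes hsd11b2 and hsd20b2. They were taken by gene name from a count table of 25377 genes, all 7 were found, and all 7 passed the low-count filter that left 20021 genes for testing.

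Cortisol is the main corticosteroid of fish. Its release is driven by the hypothalamus and pituitary and takes place in the interrenal tissue of the head kidney. In the cell, cortisol binds the glucocorticoid receptor or the mineralocorticoid receptor, which are held ready by heat shock protein and immunophilin chaperones. The bound receptor then enters the nucleus and raises the transcription of target genes, some of which dampen the signal. The axis becomes active in zebrafish larvae at about the ages sampled here.

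Each of the 48 libraries came from the pooled heads of 15 zebrafish larvae, cut anterior to the swim bladder, from a mixed wild-type stock (AB and/or Tupfel long fin). Larvae were kept in PFOS (perfluorooctane sulfonic acid), a surfactant that does not break down readily, at 0.88, 1.57 or 2.8 µM, or in the vehicle. All groups, the vehicle controls included, carried 0.4% dimethyl sulfoxide (DMSO), and media were renewed daily. Heads were collected at 5 or 4 days post fertilization (dpf), which gives 8 groups of 6 pools. Total counts ran from 14475198 to 28926584 per library, and 3 libraries correlated less well with the others of their age than the remaining 45, which were at 0.959 or above. These were PFOS 2.8 µM replicate A at 4 dpf, PFOS 1.57 µM replicate D at 5 dpf and PFOS 0.88 µM replicate H at 5 dpf. The labels do not say whether pools came from separate clutches, so the p-values measure only the spread between these pools.

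The receptor gene nr3c1, which encodes the glucocorticoid receptor, lies on chromosome 14 at 23746710 to 23801390 on the minus strand (GRCz11, as in the deposited table). The gene nr3c2, for the mineralocorticoid receptor, lies on chromosome 1 at 36935154 to 37087967 on the minus strand. The gene fkbp5, for an immunophilin co-chaperone that lowers the affinity of the glucocorticoid receptor for its ligand and is itself a receptor target, lies on chromosome 6 at 41096058 to 41117243 on the plus strand. The gene tsc22d3 (GILZ), for a leucine zipper protein induced by glucocorticoids, lies on chromosome 14 at 27998756 to 28001987 on the minus strand. The gene klf9, for a Krüppel-like transcription factor induced by cortisol, and in frogs and mammals also by thyroid hormone, lies on chromosome 5 at 26075230 to 26078166 on the plus strand. The gene hsd11b2, for the dehydrogenase that oxidizes cortisol to cortisone, lies on chromosome 7 at 35112052 to 35126375 on the minus strand. The gene hsd20b2, for the reductase that in zebrafish turns cortisone into a 20-beta-hydroxylated product for excretion, lies on chromosome 5 at 38200807 to 38214808 on the plus strand. Each is annotated as protein coding.

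Some of these loci overlap other rows of the table. The row tsc22d3 overlaps a second row named TSC22D3 on the same strand over 2183 bp, but that row held a median of only 0.716% of the counts of the pair, and at most 3.08%. The genes klf9 and hsd20b2 fall inside the very long deposited span of kat5b on the same strand, and hsd11b2 inside that of sinhcafl on the opposite strand. The sources used here do not give whether the deposited counts used strand. All counts of klf9, hsd11b2 and hsd20b2 were whole numbers, whereas only 20.8% of the tsc22d3 values were whole within 0.01.

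Age set these genes apart, and no effect of PFOS on them was detected. Relative to 4 dpf, averaged over the 4 concentrations, 5 dpf heads had 3.04-fold more klf9 RNA, 2.17-fold more hsd20b2, 2.13-fold more fkbp5, 1.47-fold more tsc22d3 and 1.26-fold more hsd11b2. Expression of nr3c1 was 1.18-fold lower at 5 dpf, and that of nr3c2 did not pass the test. In total 6 of the 7 genes passed an adjusted p of 0.05 (edgeR quasi-likelihood F test, Benjamini-Hochberg over 20021 genes), where 43.3% of all genes did. Of the 7 genes, 5 were higher at 5 dpf, against 22.8% of all genes, and 1 was lower, against 20.5% of all genes. Levels are CPM, read counts scaled to a common library size with TMM factors, and log2 fold changes are given with their standard error.

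**Figure D1:**
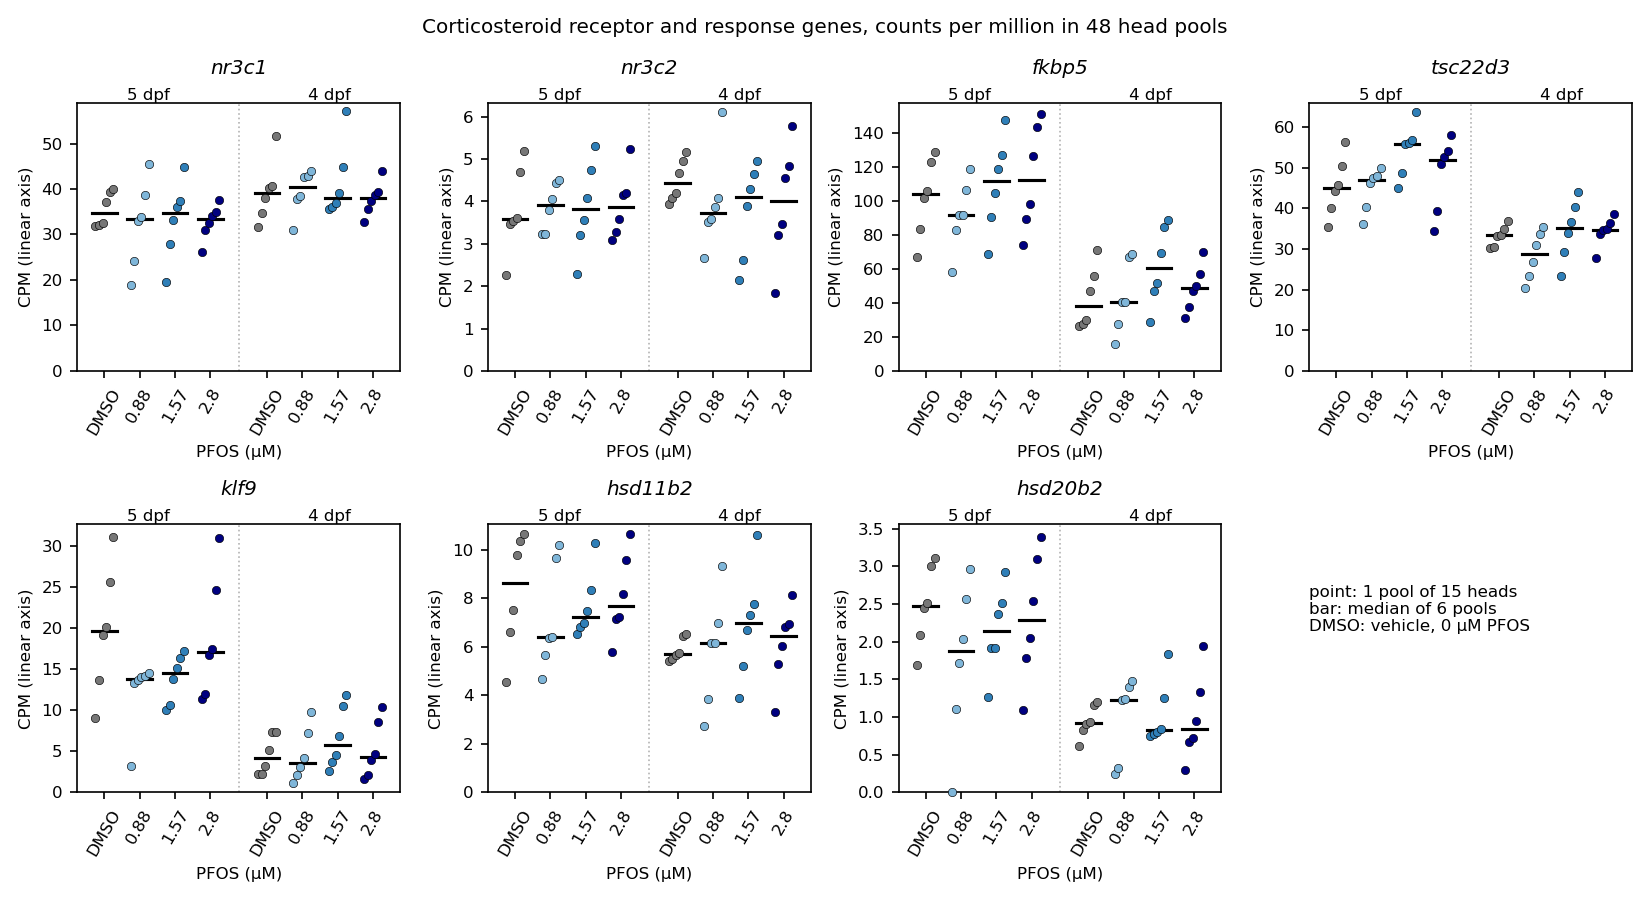
Level of each gene in every pool, in CPM on a linear axis that starts at 0 (vertical), against PFOS concentration in µM (horizontal), with 5 dpf to the left of 4 dpf in each panel. Points are pools and bars are medians of 6; fkbp5, tsc22d3, klf9 and hsd20b2 sit higher at 5 dpf in every concentration, and no group exposed to PFOS stands clear of the DMSO group of its age.

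The receptor genes had the smallest differences between the ages. At 5 dpf nr3c1 ranged from 18.8 to 45.5 CPM over 24 pools with a median of 33.6, against 30.9 to 57.1 CPM with a median of 38.6 at 4 dpf. The ages overlapped for most pools, with 5 of the 24 pools of 5 dpf below the lowest pool of 4 dpf and 2 of the 24 pools of 4 dpf above the highest of 5 dpf. This gave a log2 fold change of -0.24 ± 0.08 (adjusted p = 0.0119, edgeR). In none of the 4 concentrations taken alone did nr3c1 pass, with log2 fold changes of -0.15 ± 0.16 in DMSO, -0.28 ± 0.16 with 0.88 µM PFOS, -0.33 ± 0.16 with 1.57 µM PFOS and -0.21 ± 0.16 with 2.8 µM PFOS. The order of its 8 group means put all 4 dpf groups above all 5 dpf groups, but no neighbours in that order differed by more than their pooled SD.

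Expression of nr3c2 was scarce. It ranged from 2.27 to 5.30 CPM with a median of 3.71 at 5 dpf, against 1.85 to 6.12 CPM with a median of 4.08 at 4 dpf. Its log2 fold change was -0.06 ± 0.11, with a 95% interval of -0.28 to 0.15 (adjusted p = 0.662, edgeR). Its 8 group means were mixed with regard to age and concentration, and no neighbours in their order differed by more than the pooled SD.

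The co-chaperone gene fkbp5 rose. At 5 dpf it ranged from 58.2 to 151 CPM with a median of 103, against 15.7 to 88.6 CPM with a median of 47.1 at 4 dpf. The ages overlapped only in part, with 18 of the 24 pools of 5 dpf above the highest pool of 4 dpf. Over the concentrations the log2 fold change was 1.09 ± 0.14 (adjusted p = 1.18e-08, edgeR). The 4 separate concentrations, which share no library, gave 1.24 ± 0.28 in DMSO, 1.08 ± 0.28 with 0.88 µM PFOS, 0.83 ± 0.28 with 1.57 µM PFOS and 1.22 ± 0.28 with 2.8 µM PFOS, and all 4 passed. All 5 dpf groups ranked above all 4 dpf groups, and the step between the ages was the only one of the 7 steps in that order larger than the pooled SD (0.63 against 0.50 on the log2 scale). The 2 ages were completely apart at 2.8 µM. The call at 1.57 µM was the least firm (adjusted p = 0.0360, edgeR). It was lost when any of 7 of the 12 pools compared was left out: PFOS 1.57 µM replicates A, D, E and H at 4 dpf and D, H and I at 5 dpf, with adjusted p up to 0.0985.

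The leucine zipper gene tsc22d3 also rose. It ranged from 34.4 to 63.8 CPM with a median of 48.3 at 5 dpf, against 20.3 to 44.0 CPM with a median of 33.7 at 4 dpf. Again 18 of 24 pools of 5 dpf lay above the highest pool of 4 dpf. Its log2 fold change was 0.56 ± 0.07 (adjusted p = 8.43e-09, edgeR). It passed in each concentration, at 0.45 ± 0.14 in DMSO, 0.65 ± 0.14 with 0.88 µM PFOS, 0.65 ± 0.14 with 1.57 µM PFOS and 0.49 ± 0.14 with 2.8 µM PFOS, and the ages did not overlap at 0.88 and 1.57 µM. Again all 5 dpf groups ranked above all 4 dpf groups, with a step between the ages of 0.38 on the log2 scale (pooled SD 0.17); the step between 0.88 µM and DMSO at 4 dpf was 0.25 (pooled SD 0.24), and no other neighbours differed by more than their pooled SD. Summing its counts with those of the overlapping row TSC22D3 left it called in all 4. The call in DMSO was lost without DMSO replicate D or G at 4 dpf, or without replicate B or C at 5 dpf, with adjusted p up to 0.105. The call at 2.8 µM was lost without PFOS 2.8 µM replicate A at 4 dpf, or without replicate C or I at 5 dpf, with adjusted p up to 0.0812.

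The transcription factor gene klf9 had the largest age difference of the 7. At 5 dpf it ran from 3.24 to 31.1 CPM with a median of 14.4, against 1.096 to 11.9 CPM with a median of 4.38 at 4 dpf. Of the 24 pools of 5 dpf, 19 lay above the highest 4 dpf pool. The lowest 5 dpf value was PFOS 0.88 µM replicate H, one of the 3 libraries of low correlation, and the other 5 pools of that group held 13.3 to 14.6 CPM. The log2 fold change was 1.61 ± 0.21 (adjusted p = 2.34e-08, edgeR). In DMSO it was 2.10 ± 0.43, with 9.10 to 31.1 CPM at 5 dpf and 2.23 to 7.36 CPM at 4 dpf, and the groups did not overlap. They did not overlap at 2.8 µM either, where the log2 fold change was 1.86 ± 0.43. It was 1.42 ± 0.42 at 0.88 µM, which also passed, and 1.04 ± 0.42 at 1.57 µM, which did not (adjusted p = 0.0831, edgeR). In the order of groups the step between the ages was 0.90 on the log2 scale (pooled SD 0.85), and no other step exceeded its pooled SD. The call at 0.88 µM was lost without PFOS 0.88 µM replicate G, H or I at 4 dpf, with adjusted p up to 0.0521.

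Of the enzymes, hsd20b2 rose and hsd11b2 rose slightly. The hsd20b2 level ranged from 0 to 3.39 CPM with a median of 2.23 at 5 dpf, against 0.238 to 1.95 CPM with a median of 0.924 at 4 dpf, and 15 of 24 pools of 5 dpf lay above the highest 4 dpf pool. Its counts were few, at most 101 per library, and the zero was again PFOS 0.88 µM replicate H. Its log2 fold change was 1.12 ± 0.20 (adjusted p = 7.53e-06, edgeR). It passed in DMSO (1.39 ± 0.39), where the ages did not overlap, and at 2.8 µM (2.30-fold higher, adjusted p = 0.0363, edgeR), but not at 0.88 µM (0.84 ± 0.39; 1.05 and adjusted p = 0.0457 without replicate H at 5 dpf) or 1.57 µM (1.03 ± 0.39). The call at 2.8 µM was lost without PFOS 2.8 µM replicate A, E, H or I at 4 dpf, or without C, G or I at 5 dpf, with adjusted p up to 0.0995. On the deposited quantile normalized values hsd20b2 had a log2 fold change over the concentrations of 0.39 and was not called (adjusted p = 0.706, limma-trend). On that scale the value at 0.88 µM had the opposite sign, at -1.95, and was not called either. The 5 dpf group in this comparison holds replicate H, with its count of 0. The lowest quantile normalized value of any gene was -13.29. The part of that 1 pool in these values was not tested.

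The hsd11b2 level ranged from 4.57 to 10.7 CPM with a median of 7.35 at 5 dpf, against 2.75 to 10.6 CPM with a median of 6.17 at 4 dpf. Only 2 of 24 pools of 5 dpf exceeded the highest 4 dpf pool. The log2 fold change was 0.33 ± 0.12 (adjusted p = 0.0183, edgeR), and no single concentration passed. For both enzyme genes all 5 dpf groups ranked above all 4 dpf groups, but no neighbours in the order differed by more than their pooled SD. The call over the 4 concentrations was lost without PFOS 2.8 µM replicate C at 5 dpf (0.28, adjusted p = 0.0528).

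By concentration, 4 of the 7 genes were called between the ages in DMSO, all of them higher, where 14.2% of all genes were called (9.34% higher and 4.84% lower). With 0.88 µM PFOS 3 were called, all higher, against 12.8% of all genes (8.41% higher and 4.34% lower). With 1.57 µM PFOS 2 were called, both higher, against 15.2% of all genes (8.98% higher and 6.19% lower). With 2.8 µM PFOS 4 were called, all higher, against 12.4% of all genes (7.1% higher and 5.27% lower). Complete separation of the ages was found for klf9 and hsd20b2 in DMSO, where 8.22% of all genes separated. It was found for tsc22d3 at 0.88 µM (3.39% of all genes), for tsc22d3 at 1.57 µM (7.48%), and for fkbp5 and klf9 at 2.8 µM (6.72%). None of the 3 calls at 0.88 µM was kept when only its 12 pools were fitted, with adjusted p of 0.0668 for fkbp5, 0.0527 for tsc22d3 and 0.0974 for klf9 (edgeR), although the log2 fold changes were 1.06, 0.63 and 1.39. In the like fit at 2.8 µM tsc22d3 was not called either (log2 fold change 0.46). On the quantile normalized values tsc22d3 was not called in DMSO or at 2.8 µM (adjusted p = 0.109 at 2.8 µM, limma-trend), nor fkbp5 at 1.57 µM (adjusted p = 0.0722). Without the 3 libraries of low correlation the same number, 6 of 7, was called over the concentrations. There 4656 of 20163 genes were called higher and 4239 lower. In DMSO 4 of the 7 were called in that fit, where 2478 of all genes were higher and 1384 lower. At 0.88 µM 4 were called, where 1424 of all genes were higher and 822 lower, against 3 with all libraries.

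**Figure D2:**
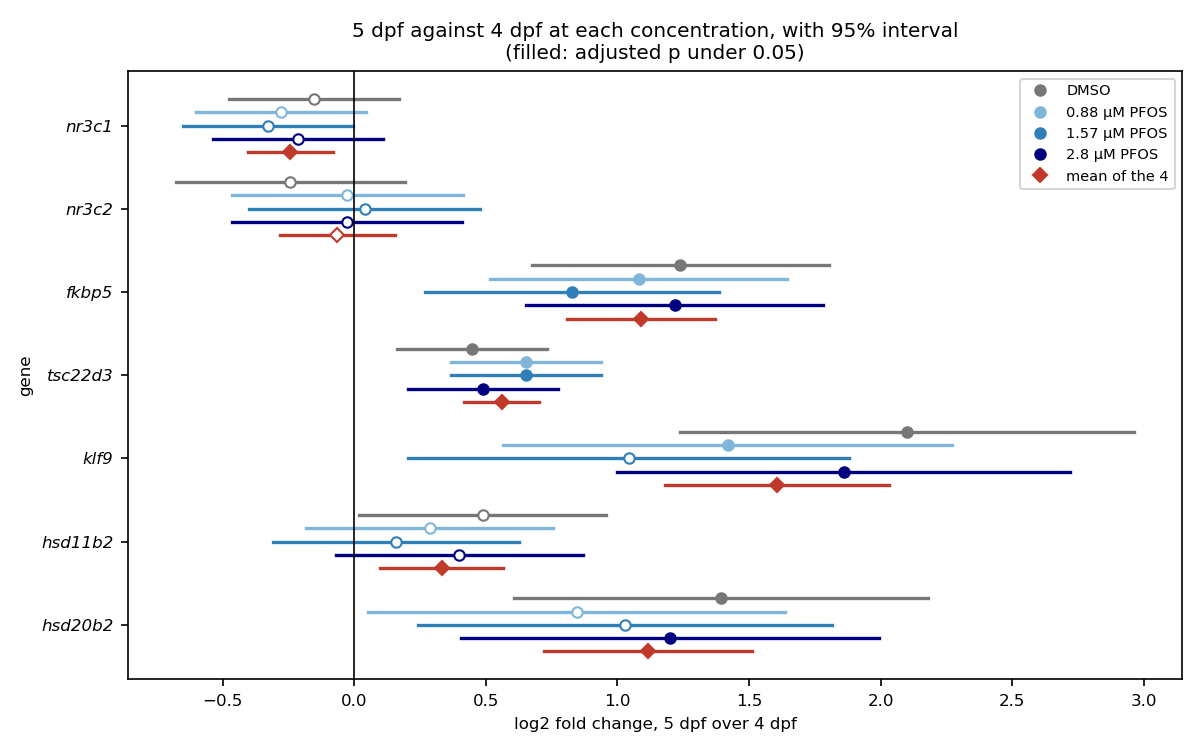
Log2 fold change of 5 dpf over 4 dpf (horizontal) for each gene (vertical), with 95% intervals, in DMSO, at 0.88, 1.57 and 2.8 µM PFOS and as their mean. Filled symbols passed an adjusted p of 0.05; fkbp5 and tsc22d3 are filled at every concentration, and the mean is filled for all but nr3c2.

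In these bulk libraries, fewer cells of a type and less RNA per cell cannot be told apart, so the markers of cell types are given as RNA levels. Beside the counts of markers, 22.8% of all genes were higher at 5 dpf and 20.5% lower. Hepatocyte markers were higher at 5 dpf for 8 of 8 genes, with summed levels of 1046 to 6677 CPM at 5 dpf and 123 to 1193 CPM at 4 dpf. Intestinal markers were higher for 7 of 7 genes (35.4 to 526 CPM at 5 dpf and 16.7 to 52.4 CPM at 4 dpf), and exocrine pancreas markers for 13 of 13 (3.42 to 6361 CPM at 5 dpf and 1.82 to 44.9 CPM at 4 dpf). Skeletal muscle markers were higher for 5 of 8 genes, with 12260 to 56140 CPM at 5 dpf and 9431 to 41510 CPM at 4 dpf. Of the ionocyte markers 3 of 7 were higher, with 478 to 984 CPM at 5 dpf and 431 to 1071 CPM at 4 dpf. Most of that sum came from atp6v1aa, with a mean count of 13378, while the others had mean counts of 31.9 to 499. The group means of log2 CPM over the ionocyte list were 3.72 to 3.94 at 5 dpf and 3.23 to 3.43 at 4 dpf. No marker of the lists given here was at 0 in all 48 libraries, and the pancreas genes cpa1, cel.1 and cel.2 and the intestinal gene fabp1b.1 were at 0 in 12 or more of the 24 pools of 4 dpf. The counts of the following lists lay nearer to the shares of all genes, or below them. Neuron markers were lower for 3 of 10 genes, with 1687 to 2806 CPM at 5 dpf and 1696 to 4223 CPM at 4 dpf. Astroglial markers were higher for 2 and lower for 1 of 6 genes, epidermal markers lower for 1 of 7, and macrophage and neutrophil markers higher for 1 of 7. The part of these cell types in the age differences was not tested.

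PFOS was compared with DMSO at each age to ask whether exposure altered corticosteroid signalling genes in the head. None of the 7 genes was called at 2.8 µM at 5 dpf or at 4 dpf, nor was any other of the 20021 genes (0% of all genes in both; 384 genes at 5 dpf and 1202 at 4 dpf had an unadjusted p under 0.05). At 1.57 µM none was called at 5 dpf, against 0.0799% of all genes, or at 4 dpf, against 0%, and at 0.88 µM none was called at either age, against 0% at both. No trend per µM and no difference between ages in the effect of a concentration was called for any of the 7, and 0% of all genes were called in those tests. None of the 7 genes had an unadjusted p under 0.05 in any of these comparisons. By DESeq2, limma and the other alternative settings 0 of 1638 values were called. These alternatives cover the comparisons with DMSO, the trends and the age difference at 2.8 µM, and not the age differences at 0.88 and 1.57 µM. Most of the 1638 values came from edgeR refits that left out 1 library, so they are not independent of each other. The CPM ranges of PFOS and DMSO pools overlapped in all 42 pairs of groups, 7 genes at 3 concentrations and 2 ages, where 0.0499 to 0.185% of all genes did not overlap. At 0.88, 1.57 and 2.8 µM these shares were 0.0499%, 0.185% and 0.11% at 5 dpf, and 0.0599%, 0.0599% and 0.0999% at 4 dpf.

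The intervals give the sizes that these pools could still hold. At 2.8 µM and 5 dpf nr3c1 had 26.2 to 37.6 CPM with a median of 33.3, against 31.8 to 40.0 CPM with a median of 34.8 in DMSO. That is a log2 fold change of -0.12 ± 0.16, with a 95% interval of -0.44 to 0.21. At 4 dpf nr3c1 had 32.8 to 43.9 CPM at 2.8 µM, with a median of 38.1, against 31.7 to 51.6 CPM with a median of 39.1 in DMSO. Here the log2 fold change was -0.06 ± 0.16, with an interval of -0.38 to 0.27. As ratios of 2.8 µM to DMSO these intervals run from 0.737 to 1.15 at 5 dpf and from 0.769 to 1.203 at 4 dpf.

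For nr3c2 the log2 fold change at 2.8 µM was 0.04 ± 0.22 at 5 dpf (interval -0.40 to 0.48) and -0.17 ± 0.22 at 4 dpf (interval -0.61 to 0.26). At 4 dpf its 6 pools at 2.8 µM ran from 1.85 to 5.79 CPM, while those in DMSO lay close together, at 3.94 to 5.16 CPM. The low end was PFOS 2.8 µM replicate A, one of the libraries of low correlation.

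The response genes gave wider intervals. Expression of fkbp5 at 5 dpf ran from 67.1 to 128 CPM in DMSO (median 104), from 58.2 to 119 CPM at 0.88 µM (median 91.5), from 68.6 to 148 CPM at 1.57 µM (median 112) and from 74.3 to 151 CPM at 2.8 µM (median 112). At 4 dpf it ran from 26.6 to 71.1 CPM in DMSO (median 38.4), from 15.7 to 68.5 CPM at 0.88 µM (median 40.4), from 29.01 to 88.6 CPM at 1.57 µM (median 60.4) and from 31.1 to 70.2 CPM at 2.8 µM (median 48.6). All 4 groups of an age overlapped. The smallest unadjusted p among the 42 comparisons of PFOS with DMSO was that of fkbp5 at 1.57 µM and 4 dpf, with a log2 fold change of 0.52 ± 0.28 (interval -0.04 to 1.08, unadjusted p = 0.0664, adjusted p = 0.999949, edgeR). At 2.8 µM the log2 fold change was 0.16 ± 0.28 at 5 dpf and 0.18 ± 0.28 at 4 dpf.

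Levels of tsc22d3 at 1.57 µM and 5 dpf were 44.8 to 63.8 CPM with a median of 55.9, against 35.4 to 56.2 CPM with a median of 44.9 in DMSO. Between them the log2 fold change was 0.26 ± 0.14 (interval -0.02 to 0.55, unadjusted p = 0.0697, adjusted p = 0.923, edgeR). At 2.8 µM it was 0.09 ± 0.14 at 5 dpf and 0.05 ± 0.14 at 4 dpf, so the PFOS and DMSO pools differed by less than their spread at the highest concentration.

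Levels of klf9 at 5 dpf ran from 9.10 to 31.1 CPM in DMSO (median 19.6), from 3.24 to 14.6 CPM at 0.88 µM (median 13.9), from 10.1 to 17.3 CPM at 1.57 µM (median 14.5) and from 11.4 to 31.0 CPM at 2.8 µM (median 17.1). The lower concentrations lay at the lower end of the DMSO pools and the highest overlapped them almost fully. The log2 fold changes were -0.69 ± 0.41 at 0.88 µM (interval -1.52 to 0.13, unadjusted p = 0.0986, adjusted p = 0.872, edgeR), -0.51 ± 0.41 at 1.57 µM and -0.07 ± 0.41 at 2.8 µM. At 4 dpf klf9 ran from 2.23 to 7.36 CPM in DMSO (median 4.20), from 1.096 to 9.76 CPM at 0.88 µM (median 3.62), from 2.66 to 11.9 CPM at 1.57 µM (median 5.74) and from 1.57 to 10.4 CPM at 2.8 µM (median 4.28). The log2 fold change at 1.57 µM was 0.55 ± 0.42. The difference between the ages of the 1.57 µM effect on klf9 was -1.06 ± 0.59 (interval -2.24 to 0.12, unadjusted p = 0.0780, adjusted p = 0.890, edgeR), a contrast chosen after these values were seen.

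Neither enzyme gene was called. For hsd11b2 the log2 fold change at 2.8 µM was -0.03 ± 0.23 at 5 dpf and 0.06 ± 0.23 at 4 dpf. Its pools of 2.8 µM at 4 dpf lay within 3.30 to 8.13 CPM, and those in DMSO within 5.41 to 6.54 CPM. For hsd20b2 it was -0.09 ± 0.37 at 5 dpf and 0.10 ± 0.41 at 4 dpf, with 0.292 to 1.95 CPM at 2.8 µM and 0.618 to 1.2002 CPM in DMSO at the younger age. The upper ends of the hsd20b2 intervals at 2.8 µM were 1.57-fold higher at 5 dpf and 1.90-fold higher at 4 dpf.

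**Figure D3:**
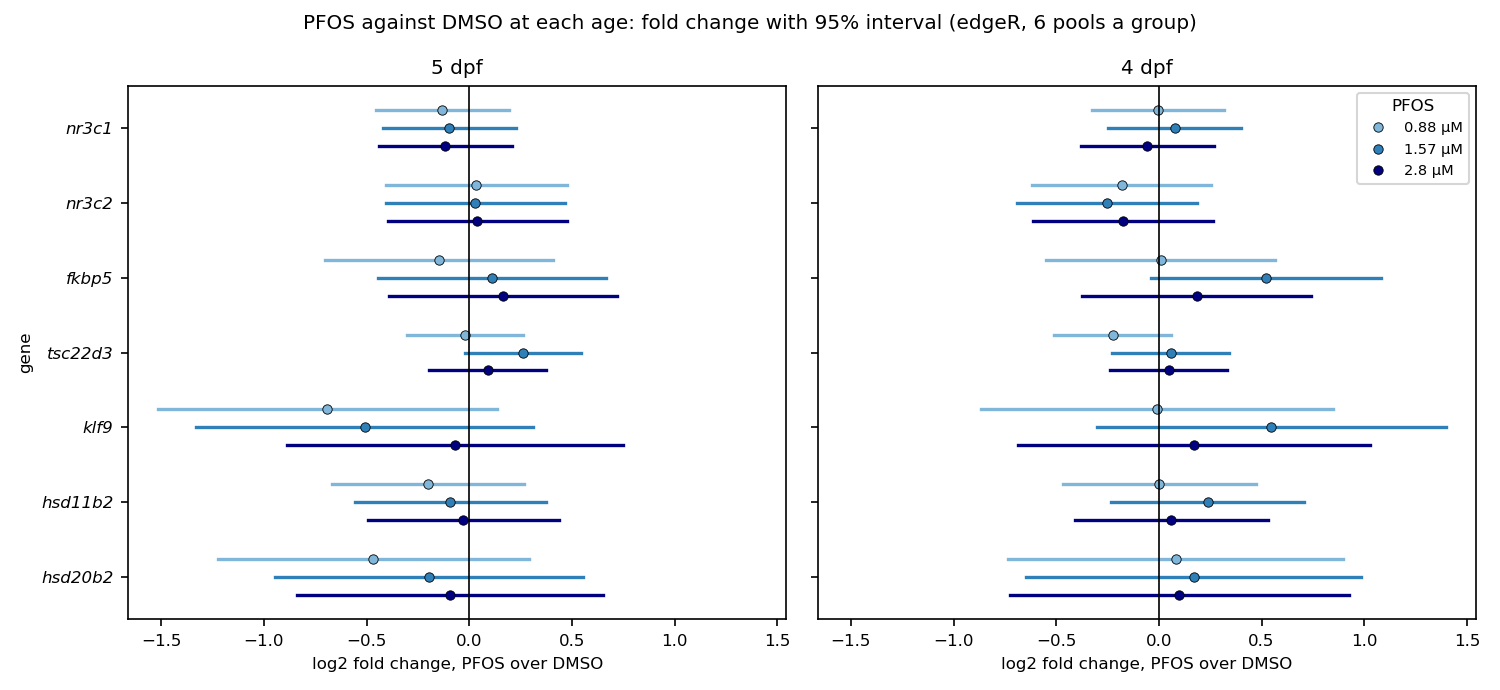
Log2 fold change of PFOS over DMSO (horizontal) with 95% intervals for each gene (vertical) at 0.88, 1.57 and 2.8 µM, at 5 dpf (left) and 4 dpf (right). All 42 intervals cross 0, and they are widest for klf9 and hsd20b2.

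The members differed in how much they varied between pools of the same group. The SD of log2 CPM within groups was 0.81 for klf9, above that of 98% of the 500 tested genes nearest to it in mean level, whose median SD was 0.37. For hsd20b2 it was 0.89, above 95% of such genes (median 0.54). Without PFOS 0.88 µM replicate H at 5 dpf, where its count was 0, the SD of hsd20b2 was 0.61, above 77% of such genes (median 0.51), and that of klf9 was 0.76, above 97.8%. For fkbp5 the SD over all libraries was 0.51, above 86.2% (median 0.32). For hsd11b2 it was 0.42, above 64% of such genes. The receptors and tsc22d3 were quieter, with SDs of 0.28 for nr3c1, 0.38 for nr3c2 and 0.24 for tsc22d3, below the medians of genes of like level (0.31, 0.43 and 0.31).

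The spread of the response genes was shared. After removal of the group means, Pearson's r over the 48 libraries passed an adjusted p of 0.05 (100000 permutations within groups, adjusted over 21 pairs of genes) for 11 of 21 pairs, and Spearman's rho for 10. All 11 were positive. They included all 6 pairs among fkbp5, tsc22d3, klf9 and hsd11b2. The strongest was fkbp5 with klf9 (r = 0.77, rho = 0.74, both raw p = 2e-05, adjusted p = 0.00014 for r and 0.00021 for rho, and r = 0.71 without the 2 libraries farthest on the x axis). Next came tsc22d3 with hsd11b2 (r = 0.72, rho = 0.62, raw p = 1e-05 and 8e-05, adjusted p = 0.00014 and 0.00056; r = 0.71 without the 2 farthest) and fkbp5 with hsd11b2 (r = 0.66, rho = 0.67, both raw p = 2e-05, adjusted p = 0.00014 and 0.00021; r = 0.61 without the 2 farthest). A pool high in one of these transcripts for its group thus tended to be high in the others. The set of fkbp5, tsc22d3, klf9 and hsd11b2 was not planned in advance. That all its 6 pairs passed is therefore a description and not a test of a set. Outside it, klf9 with hsd20b2 had r = 0.60, above tsc22d3 with klf9 (0.56) and klf9 with hsd11b2 (0.58).

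The receptor genes stood outside this set. The 4 correlations of nr3c1 with fkbp5, tsc22d3, klf9 and hsd11b2 lay between -0.12 and 0.19, and none passed. Those of nr3c2 with the same 4 genes lay between 0.15 and 0.28, and none passed either. Within 5 dpf alone nr3c1 with klf9 passed by r (0.54), but not by rho (adjusted p = 0.106), and r was 0.25 without the 2 farthest libraries, so it rests on those. Expression of nr3c1 correlated with nr3c2 (r = 0.38, rho = 0.44, raw p = 0.00557 and 0.00319, adjusted p = 0.0117 and 0.00744; r = 0.37 without the 2 farthest). Its correlation with hsd20b2 (r = 0.46, raw p = 0.0109, adjusted p = 0.0209) did not pass by rho (0.31, raw p = 0.0417, adjusted p = 0.0729), and r was 0.22 without the 2 farthest libraries, so it rests on those. The enzyme gene hsd20b2 went with klf9 (r = 0.60, rho = 0.53, raw p = 0.00027 and 0.00065, adjusted p = 0.00081 and 0.00195; r = 0.47 without the 2 farthest). It also went with hsd11b2 (r = 0.48, rho = 0.49, raw p = 0.00151 and 0.00146, adjusted p = 0.00396 and 0.00383, and r = 0.40 without the 2 farthest) and with nr3c2 (r = 0.37, rho = 0.43, raw p = 0.00257 and 0.004, adjusted p = 0.006 and 0.0084, and r = 0.30 without the 2 farthest). Some of these calls depended on the libraries or the scale. Without the 3 libraries of low correlation nr3c1 with nr3c2 (r = 0.34, adjusted p = 0.0557), nr3c2 with hsd20b2 (r = 0.30, adjusted p = 0.112) and nr3c1 with hsd20b2 (r = 0.09, adjusted p = 0.601) no longer passed. On the quantile normalized values nr3c2 with hsd20b2 (r = 0.06, adjusted p = 0.678) and hsd11b2 with hsd20b2 (r = 0.16, adjusted p = 0.583) did not pass by r, while rho of the second pair did (0.33, adjusted p = 0.0435). On the same values nr3c1 with klf9 passed by r (0.31, adjusted p = 0.0439), but not by rho (0.26, adjusted p = 0.1295, permutation test). Without the 2 farthest libraries its r was 0.19.

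Within each age alone the pairs that passed differed. At 5 dpf 5 of 21 pairs passed by r, and at 4 dpf 9 did, with 24 libraries each. Among fkbp5, tsc22d3, klf9 and hsd11b2, r ran from 0.41 to 0.71 at 5 dpf, where 2 of 6 pairs passed, and from 0.65 to 0.91 at 4 dpf, where all 6 passed. The pair fkbp5 and klf9 had r = 0.41 at 5 dpf (adjusted p = 0.127, permutation test) and 0.91 at 4 dpf (adjusted p = 0.000105, permutation test). Without the 2 farthest libraries its r was 0.59 at 5 dpf and 0.88 at 4 dpf. Other pairs had the higher r at 5 dpf. For klf9 with hsd20b2 r was 0.79 at 5 dpf (adjusted p = 0.00546) and 0.53 at 4 dpf (adjusted p = 0.051). For nr3c1 with nr3c2 r was 0.57 at 5 dpf (adjusted p = 0.0171) and 0.18 at 4 dpf (adjusted p = 0.474, all by permutation test). The difference between the ages was not tested.

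**Figure D4:**
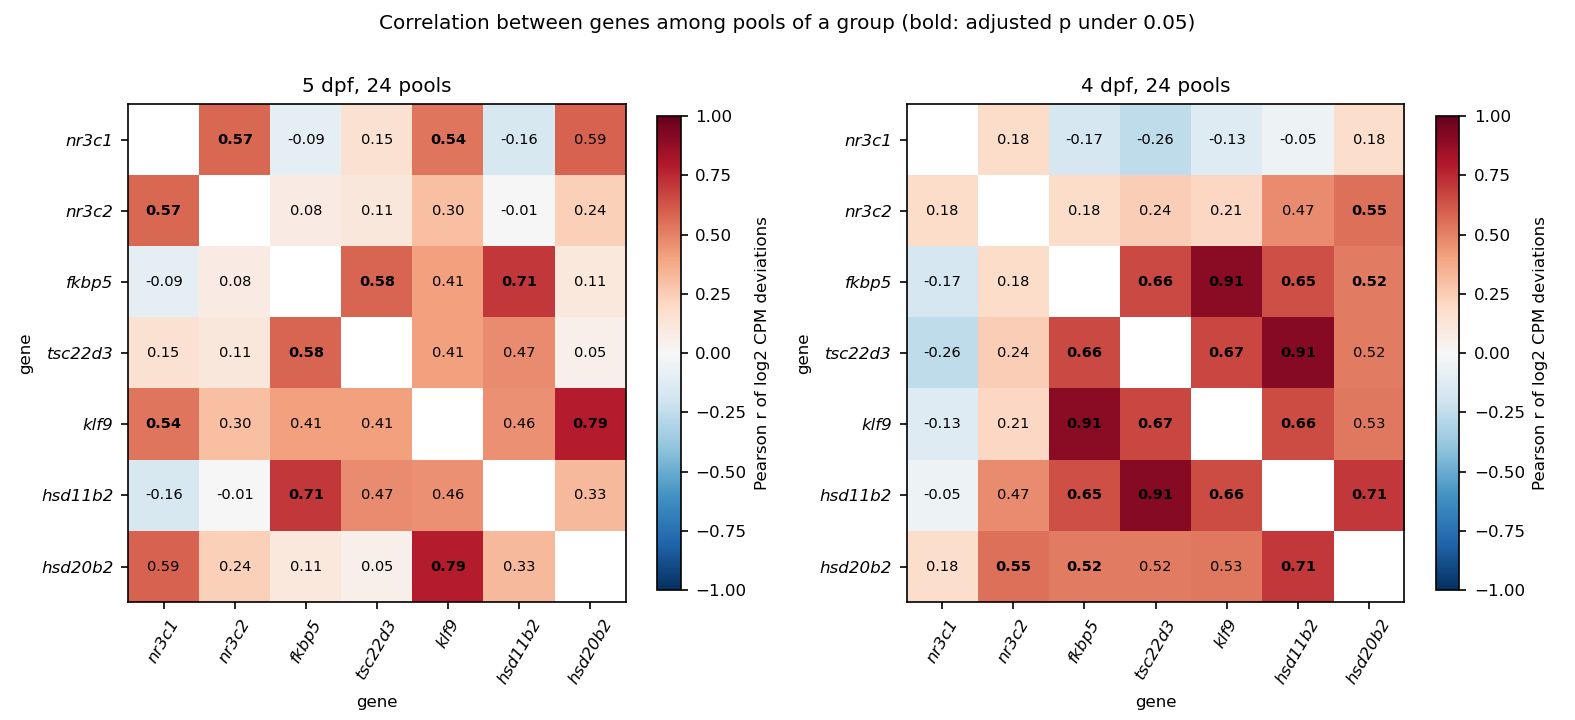
Pearson's r between the 7 genes (both axes) from deviations of log2 CPM from group means, over 24 pools at 5 dpf (left) and 24 pools at 4 dpf (right); bold values passed an adjusted p of 0.05. The block of fkbp5, tsc22d3, klf9 and hsd11b2 is between 0.65 and 0.91 at 4 dpf and between 0.41 and 0.71 at 5 dpf.

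Several members moved between pools with markers of particular cell types. Of 91 relations between the 7 genes and the mean log2 CPM of 11 marker lists, the TMM factor and the total count, 25 passed by r and 17 by rho (permutation test, adjusted over the 91). The ionocyte list went with hsd11b2 (r = 0.70, rho = 0.73, both raw p = 2e-05, adjusted p = 0.000455 and 0.000682, and r = 0.68 without the 2 farthest) and with tsc22d3 (r = 0.54, rho = 0.56, both raw p = 0.00022, adjusted p = 0.00209 and 0.00222, and r = 0.60 without the 2 farthest). It also went with klf9 (r = 0.49, rho = 0.44, raw p = 0.00082 and 0.00296, adjusted p = 0.00498 and 0.0168, and r = 0.39 without the 2 farthest). By r alone it passed with hsd20b2 (r = 0.49, raw p = 0.00207, adjusted p = 0.0111; rho = 0.37, adjusted p = 0.0686; r = 0.32 without the 2 farthest) and with fkbp5 (r = 0.36, raw p = 0.0112, adjusted p = 0.0408; rho = 0.38, adjusted p = 0.0542; r = 0.36 without the 2 farthest). Counting these, 5 of the 7 genes passed by r and 3 by both r and rho. Ionocytes are the ion-transporting cells of larval skin and gill, and in mammals hsd11b2 protects the mineralocorticoid receptor in ion-transporting epithelia. Expression of nr3c2 did not go with the ionocyte list (r = 0.09, rho = 0.05, adjusted p = 0.666 and 0.844, permutation test). The epidermis list also went with hsd11b2 (r = 0.65, rho = 0.65, raw p = 2e-05 and 3e-05, adjusted p = 0.000455 and 0.000682, and r = 0.64 without the 2 farthest). The neuron list went against hsd11b2 (r = -0.61, rho = -0.62, raw p = 2e-05 and 3e-05, adjusted p = 0.000455 and 0.000682, and r = -0.61 without the 2 farthest). The gene tsc22d3 went the same way with both lists, at r = 0.56 and rho = 0.56 for epidermis (raw p = 0.00036 and 0.00021, adjusted p = 0.00273 and 0.00222, and r = 0.50 without the 2 farthest). For neurons its r was -0.49 and rho -0.52 (raw p = 0.00082 and 0.00055, adjusted p = 0.00498 and 0.00417, and r = -0.45 without the 2 farthest).

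Both receptor genes and hsd20b2 went against muscle markers. For nr3c1 and the skeletal muscle list r was -0.68 and rho -0.64 (raw p = 2e-05 and 3e-05, adjusted p = 0.000455 and 0.000682). Without the 2 farthest libraries r was -0.57, and it was -0.87 within 5 dpf and -0.36 within 4 dpf. For nr3c2 r was -0.55 and rho -0.60 (raw p = 0.00017 and 4e-05, adjusted p = 0.00193 and 0.000728, and r = -0.56 without the 2 farthest). For hsd20b2 r was -0.56 and rho -0.49 (raw p = 0.00036 and 0.00139, adjusted p = 0.00273 and 0.00843, and r = -0.44 without the 2 farthest). The pituitary list went against nr3c1 (r = -0.57, adjusted p = 0.00209), nr3c2 (r = -0.56, adjusted p = 0.00392) and klf9 (r = -0.45, adjusted p = 0.0149), by rho as well. By r alone that list went against hsd20b2 (r = -0.49, adjusted p = 0.0201) and tsc22d3 (r = -0.39, adjusted p = 0.0253). Macrophage and neutrophil markers went against nr3c1 (r = -0.59, adjusted p = 0.00156, all by permutation test). By r alone the epidermis list went against nr3c1 (r = -0.355, adjusted p = 0.0408, and adjusted p = 0.0711 by rho, permutation test). The TMM factor, which sets the scale of CPM, correlated with 6 of the 7 genes by r, from 0.39 for tsc22d3 to 0.63 for hsd20b2, and not with fkbp5. By rho it passed for 3 of them, nr3c1, nr3c2 and hsd20b2, and not for tsc22d3, klf9 and hsd11b2 (adjusted p = 0.0711, 0.0704 and 0.0781). Over the 48 libraries none of the 21 relations of the 7 genes with the hepatocyte, exocrine pancreas and intestine lists passed, with r from -0.36 to 0.09. Some of these changed sign between the ages. For hsd11b2 r was 0.60 at 5 dpf and -0.30 at 4 dpf with hepatocyte markers, and 0.45 and -0.49 with intestinal markers. For fkbp5 and intestinal markers r was 0.53 at 5 dpf and -0.36 at 4 dpf. For hsd20b2 and intestinal markers the sign did not change, with r of -0.06 at 5 dpf and -0.59 at 4 dpf. The relations within an age were not tested. With the interrenal list none of the 7 genes passed over the 48 libraries (r from -0.29 to 0.26). With the astroglia list none passed either (r from -0.16 to 0.34). The part of cell types and library scale in the shared spread was not tested.

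By the same measure over the 48 libraries, the genes most like each member among 12855 named genes (12856 for hsd20b2) were as follows, as a description without a test. The closest to nr3c1 were smarcd3b (r = 0.87), a subunit of the SWI/SNF chromatin remodeller, and kmt5b (r = 0.87), a histone methyltransferase. For nr3c2 the highest were LO018168.1 (r = 0.78) and ptpn11b (r = 0.77), and for fkbp5 they were pfkfb4b (r = 0.80), an enzyme that sets the level of a glycolysis activator, and klf9 itself (r = 0.77). For tsc22d3 they were rel (r = 0.78), an NF-kappaB subunit, and slc38a5a (r = 0.77), an amino acid transporter. For klf9 they were pik3r3a (r = 0.88), a regulatory subunit of PI3 kinase, and FO681323.1 (r = 0.87), followed by klf3 (r = 0.86). For hsd11b2 they were prom1b (r = 0.84) and mylipb (r = 0.83), and for hsd20b2 casp2 (r = 0.87) and micu2 (r = 0.86), whose rho values were lower, at 0.74 and 0.63. Genes measured in the same library share its depth and its cell content, and total counts and marker levels differed between pools. Likeness here is among pools of a group and leaves the age difference out. Between the ages these genes were mixed. There was no call for pik3r3a (log2 fold change 0.16, adjusted p = 0.451, edgeR), although klf9 was called. Called in the direction of their member were smarcd3b (-0.50) and kmt5b (-0.42) for nr3c1, pfkfb4b (0.44) for fkbp5 and mylipb (0.91) for hsd11b2. Called in the direction opposite to hsd11b2 was prom1b (-0.95). Apart from klf9 itself, the other genes named here were not called.

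The rest of the pathway was described from lists of named genes, chosen with earlier results of these data known. Their counts are therefore descriptions and not tests of a set. Of 62 corticosteroid-responsive genes written down, 57 were in the table and tested, and 45 rose and 0 fell at 5 dpf relative to 4 dpf over the 4 concentrations (78.9%, where 43.3% of all genes were called), with a median log2 fold change of 0.71 against -0.0033 for all genes. Leaving out fkbp5, tsc22d3 and klf9, 42 of 54 rose, with a median of 0.67. The smallest p-values were for pck1, the rate-limiting enzyme of gluconeogenesis (5.14 ± 0.34), tat, which begins tyrosine breakdown (3.83 ± 0.25), agxtb, a glyoxylate aminotransferase (3.90 ± 0.27), and slc6a19b, a neutral amino acid transporter (3.17 ± 0.22). All are best known from liver, kidney or gut, and the liver and gut markers given above rose beside them. The part of liver and gut RNA in the rise of this list was not tested. In DMSO alone 31 rose and 0 fell, with a median of 0.86, where 1869 of all 20021 genes rose and 969 fell. Without the 3 libraries of low correlation 46 rose over the concentrations, where 4656 of 20163 genes rose and 4239 fell. In DMSO 38 rose in that fit, where 2478 of all genes rose and 1384 fell. Of the list 0 fell in both.

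The axis list, with hypothalamic and pituitary genes, had 10 genes tested of 15 in the table. Over the concentrations 7 rose and 0 fell, where 22.8% of all genes rose and 20.5% fell, with a median of 0.62. They included crhbp, the binding protein of corticotropin-releasing hormone (1.45 ± 0.16), crhb, that hormone itself (1.01 ± 0.16), pomca, the precursor of corticotropin (1.05 ± 0.28), and ucn3l, a urocortin (1.83 ± 0.31). In DMSO 2 rose and 0 fell (20% of the list, against 14.2% of all genes called). Of the 4 pituitary markers tested, 3 were higher at 5 dpf, with summed levels of 9.45 to 89.0 CPM at 5 dpf and 3.58 to 23.7 CPM at 4 dpf.

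The list of corticosteroid synthesis and turnover had 15 genes tested of 23 in the table, and 9 rose and 1 fell, with a median of 0.55 (66.7% called, against 43.3% of all genes). The 9 include hsd11b2 and hsd20b2, given above. Among them were abcb5 (1.68 ± 0.12) and abcb4 (2.30-fold higher), of a family of efflux transporters, srd5a2a, a steroid 5-alpha-reductase (2.11 ± 0.22), and hsd11b1la, a relative of the 11-beta-hydroxysteroid dehydrogenases (1.07 ± 0.17). In DMSO 6 rose and 0 fell (40% of the list, against 14.2% of all genes). Of the genes that make cortisol, cyp11c1 had counts in all 48 libraries with a mean count of 109, and cyp17a1 also in all 48 with a mean of 26.5. Between the ages the synthesis genes were mixed. The gene that fell was cyp17a1 (-0.97 ± 0.21, adjusted p = 0.000166), while cyp17a2 (1.90 ± 0.31) and fdx1 (0.49 ± 0.17) rose. The genes cyp11c1, cyp21a2 and fdxr were not called (adjusted p = 0.165, 0.713 and 0.062, edgeR). The genes star, cyp11a1, cyp11a2 and hsd3b1 had too few counts to be tested, and cyp11a1 and mc2r, the corticotropin receptor, were each at 0 in at least 19 of 24 pools at both ages. Of the interrenal markers 6 of 12 were tested, of which 2 were higher and 1 lower, with summed levels of 6.43 to 28.9 CPM at 5 dpf and 6.77 to 17.7 CPM at 4 dpf.

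Of 29 chaperones and coregulators of the receptors tested, 5 rose and 11 fell, with a median of -0.0875 (55.2% called, against 43.3% of all genes). Falling genes included hsp90aa1.1, an HSP90 chaperone (-0.71 ± 0.10), and ptges3b, a p23 co-chaperone (-0.69 ± 0.11). The other HSP90 and p23 genes of the list were not called. These were hsp90aa1.2 (0.11 ± 0.07), hsp90ab1 (-0.007 ± 0.11) and ptges3a (-0.08 ± 0.11). Rising genes were fkbp5, given above, and among others stub1, a ubiquitin ligase that acts on chaperone clients (0.60 ± 0.10). The rising genes are a smaller share of the list than of all genes (22.8%). In DMSO 1 rose and 1 fell (6.9% of the list, below the 14.2% of all genes). Of 14 tested relatives of the 7 genes, 5 rose and 4 fell, where 22.8% of all genes rose and 20.5% fell, and rdh1, a retinol dehydrogenase of the same enzyme superfamily as hsd20b2, gave the smallest p (3.03 ± 0.32).

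**Figure D5:**
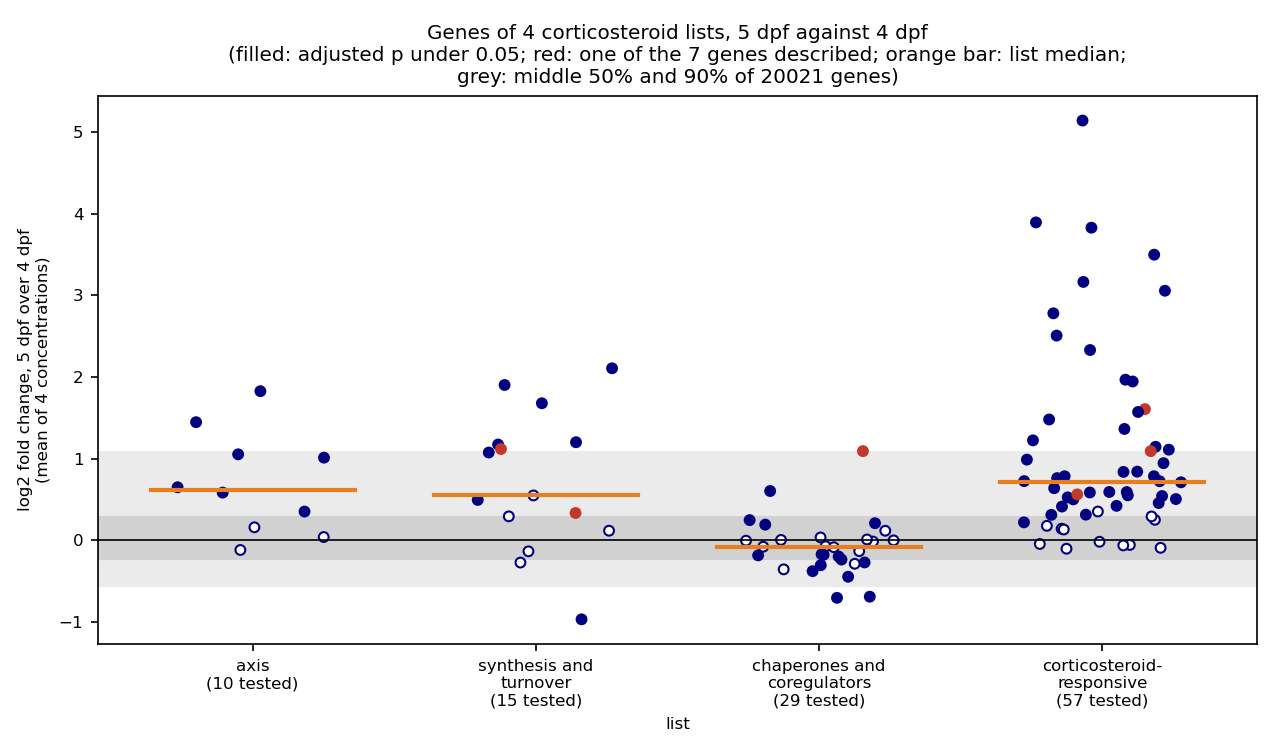
Log2 fold change of 5 dpf over 4 dpf (vertical, mean of the 4 concentrations) for every tested gene of 4 corticosteroid lists (horizontal), with list medians as orange bars and the middle 50% and 90% of 20021 genes in grey. Filled points passed an adjusted p of 0.05. Of 57 corticosteroid-responsive genes 45 are filled, all of them above 0. The lists were chosen with earlier results of these data known.

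None of these lists held a gene called under PFOS at any concentration or age (edgeR, with or without the 3 libraries of low correlation). At 2.8 µM 3 of the 57 responsive genes had an unadjusted p under 0.05 at 5 dpf, where 1.92% of all genes did, and 4 at 4 dpf, where 6% did. At 1.57 µM 5 did at 5 dpf, where 5.04% of all genes did, and 5 at 4 dpf, where 1.95% did. At 0.88 µM the counts were 4 at 5 dpf (5.18% of all genes) and 0 at 4 dpf (1.96%). As a share of the 57, each count but that at 0.88 µM and 4 dpf lay above the share of all genes. These counts were at most 5 genes, and the difference in shares was not tested. In the axis, synthesis and chaperone lists the counts were at most 3 at any concentration and age, the highest being 3 of 15 synthesis genes at 1.57 µM and 5 dpf. At 2.8 µM the medians of the responsive list were 0.011 at 5 dpf and 0.13 at 4 dpf, beside -0.0047 and 0.026 for all genes. The genes with the smallest p at 2.8 µM were, at 5 dpf, tat (-1.21 ± 0.43, unadjusted p = 0.00695, adjusted p = 0.992), and at 4 dpf anxa1a, an annexin induced by glucocorticoids in mammals (0.68 ± 0.22, unadjusted p = 0.00302, adjusted p = 0.748; both edgeR). In the axis list they were crhb at 5 dpf (0.54 ± 0.31) and crhr1, a receptor of corticotropin-releasing hormone, at 4 dpf (-0.75 ± 0.31). In the synthesis list they were fdxr at 5 dpf (-0.40 ± 0.24) and cyp11c1, the last enzyme of cortisol synthesis, at 4 dpf (0.69 ± 0.34). In the chaperone list they were hsp90aa1.1 at 5 dpf (-0.29 ± 0.21) and med1, a Mediator subunit, at 4 dpf (-0.31 ± 0.16). Each of these 6 had an adjusted p of at least 0.748 (edgeR).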

How the data were processed

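Per the labels' protocols, polyA RNA (500 ng) was amplified for 13 cycles of PCR and sequenced as single reads of 75 cycles in 3 pools of 16 randomised libraries. No source used here gives which library was in which, so no value within a sequencing pool could be computed. STAR 2.5.3a, Partek 8.0.19.0428 and GRCz11 were used, per the submitters' processing notes. The authors deposited expected counts per gene without normalization, and these were rounded here. A second deposited table holds log2 values after quantile normalization, per the file headers.

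All 48 libraries were fitted in edgeR 4.0.16 (R 4.3.3) with 8 groups, filterByExpr, TMM, the quasi-likelihood F test and Benjamini-Hochberg adjustment over 20021 genes, with a threshold of 0.05. Log2 CPM used a prior count of 2. The fit was also run on counts simulated from its own dispersions. Such counts hold no outlying libraries, so that run cannot vouch for the calls in these pools. The 7 genes, the lists and the tests were chosen with earlier results of these data known. Of each list, up to 4 called genes with the smallest p were named per contrast, or else the gene with the smallest p at 2.8 µM. From these, the text gives those of the mean of the 4 concentrations and of 2.8 µM. For likeness, the 3 highest r were taken among named genes with a mean log2 CPM of at least 1. Alternatives were RLE, other filters, DESeq2 1.42.0, limma 3.58.1, only the groups compared, the title's letter as a block and libraries left out (for the spread within groups, after seeing the data). Reads were counted without molecular identifiers. Names of all 7 genes matched RefSeq symbols; sequences were not used here.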

Additional observations from a re-analysis of the deposited data

Results flagged for a closer look

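A sample far from the others of its group was looked for in 56 groups (7 genes in 8 groups of 6 pools), where chance flags about 1 in 20. There were 2 such cases, both in PFOS 0.88 µM replicate H at 5 dpf. The gaps were measured on log2 CPM and not on the CPM printed here. Its klf9 level was 3.24 CPM (a count of 32), while the other 5 pools held 13.3 to 14.6 CPM. The gap took up 0.9389 of the range of the group in log2 CPM. Its hsd20b2 level was 0 CPM (a count of 0), while the others held 1.11 to 2.97 CPM, a gap of 0.7346 of the range in log2 CPM. On that scale the value of a count of 0 is set by the prior count. Both gaps exceed Dixon's 95% critical value for groups of 6 on the log2 scale. This library had the fewest counts (14475198) and a median correlation of 0.915 with the others of its age, and the part of either in these values was not tested.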

How the results depend on the processing

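No alternative changed the sign of a value called in the main fit, and of 1638 values for PFOS, its trend and the age difference of the 2.8 µM effect, 0 were called, with a lowest adjusted p of 0.191. Most of these 1638 values came from refits that left out 1 library. The number of the 7 genes called between ages moved in these cases. At 0.88 µM it was 0 when only the groups compared were fitted and 4 without the 3 libraries of low correlation, against 3. At 1.57 µM it was 4 in that fit, 4 with sample quality weights (chosen after seeing the data) and 1 by limma-trend on the quantile normalized values, against 2. By limma-trend it was 2 at 2.8 µM and 2 in DMSO, against 4 in each. Leaving out 1 library gave 2 to 4 at 0.88 µM, 1 to 3 at 1.57 µM, 2 to 4 at 2.8 µM, 3 to 4 in DMSO and 5 to 6 over the concentrations, and 0 in every PFOS comparison. The cause was not tested. Within 5 dpf 5 pairs of genes correlated and within 4 dpf 9, with 24 libraries each, against 11 over 48; the cause was not tested. The title's letters were checked as a pairing by asking that every same-letter pair of pools correlate above 0.1. This held in 0 of 28 pairs of groups. The median correlation was 0.0254 for the same letter and -0.00305 for other letters. Medians for the same letter ran from -0.25 to 0.25 between pairs of groups. A pairing of only some pools cannot be told from so strict a rule. With the letter as a replicate block, 3 genes were called at 0.88, 1.57 and 2.8 µM and in DMSO, 6 over the concentrations, 0 under PFOS, and 11 pairs correlated; tsc22d3 in DMSO was then 0.31 (adjusted p = 0.168, edgeR). The counts of hsd20b2 were few, at most 101 per library, and the part of depth in its results was not tested.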
